A study of Drosophila melanogaster with 16 samples.

Results

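The 232 strongest insulation boundaries of the euchromatic autosomes were examined in blastoderm embryos of Drosophila melanogaster. They were selected on the authors' own boundary strength, a score of 2.0 or more on the arms 2L, 2R, 3L and 3R, leaving out 2L above 22 Mb, 3L above 23 Mb, 2R below 5.5 Mb and 3R below 4.5 Mb (dm6). The deposited list holds 2020 different boundaries, of which 1223 lie in these coordinates, so the strong ones made up 19.0% of them and the other 991 served as the comparison. Euchromatic is meant by position only, since no chromatin mark was measured. Because strength chose the members, strengths are given below as a description and are not tested.

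Chromatin contacts were mapped by Micro-C, a method that digests fixed chromatin with micrococcal nuclease, ligates the fragments and counts which of them were near each other. The control line is yw, labelled as wild type, with 2 samples of whole embryos at nuclear cycle 14, pooled over several collections of 45 min that were aged for 2 h at 25 °C and sorted by hand. The other 14 samples of the series carry edited genotypes and were not analysed here. The boundary list describes the yw line with a value per boundary and no value per sample, so strengths come without an error over replicates, and sequencing depth is not known.

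A boundary is a position across which fewer contacts form than on either side, and it separates neighbouring domains of chromatin. In flies such positions are bound by insulator proteins such as BEAF-32, CP190, CTCF and Su(Hw), and many lie at promoters of broadly expressed genes. Textbook examples include homie, the insulator between the pair-rule gene eve and its neighbour TER94, and scs and scs′, which flank a pair of heat shock genes. Nuclear cycle 14 is the stage at which zygotic transcription becomes widespread and domains become visible in contact maps.

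Strengths of the strong boundaries ran from 2.0015 to 8.02, with a median of 2.28 and quartiles of 2.11 and 2.58. Each boundary is a bin of 400 bp. Those below the threshold ran from 1.251 to 1.997, with a median of 1.52. The weakest members stood beside CG13806 and ecd on 3L (2.0015), dmt and trbd on 3R (2.0029), CG13917 and Tmep on 3L (2.0032), RpL36A on 2L (2.0044) and Gnf1 on 3R (2.0057). Just below the threshold lay a boundary inside ics on 2L (1.9974) and boundaries at Cht7 on 3L (1.9963), Dyb and Lac on 2R (1.9941), Not3 on 2R (1.993) and SppL on 3R (1.9895). The score is continuous across 2.0, so the threshold marks no gap in the data.

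Strong boundaries were spread over all 4 arms. Arm 3R held 77 of its 356 boundaries in the strong class (21.6%), 2L held 55 of 259 (21.2%), 3L 49 of 295 (16.6%) and 2R 51 of 313 (16.3%). Per Mb this came to 2.79 on 3R, 2.58 on 2R, 2.5 on 2L and 2.13 on 3L. The density was thus of a like order on each arm, although 2R had the most boundaries in all, at 15.8 per Mb.

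**Figure D1:**
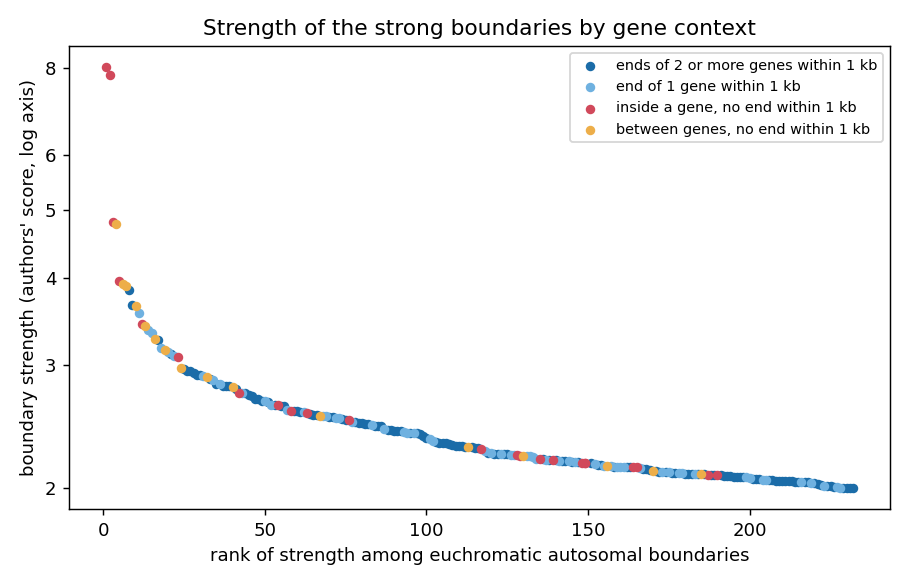
Strength of each of the 232 strong boundaries (vertical axis, log scale, the authors' score) against its rank among the 1223 euchromatic autosomal boundaries. Colours give the gene context, and 12 of the 20 strongest boundaries have no protein-coding gene end within 1 kb.

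Most of the very strongest boundaries lay away from gene ends. Of the 20 strongest, 12 lacked a protein-coding gene end within 1 kb, with 5 of these inside a gene and 7 between genes. The top pair, with strengths of 8.02 and 7.80, lay 4.4 kb apart inside plh on 3R, at chr3R:5003201-5003600 and chr3R:5008001-5008400. No other boundary of these coordinates passed 5. Among the 12 without a gene end, those in plh and mtd and near Jhbp1 on 3R lay within 1 Mb of a coordinate limit. So did those at chr2L:21549201-21549600 and chr2R:6266001-6266400. None of the 20 strongest with a gene end did. Over all strong boundaries 17 of 232 (7.33%) lay so near, against 45 of 991 weaker ones (4.54%). Mappability, and differences between the genome of the line and the reference, were not examined at these boundaries or any others. Next in rank was a boundary of 4.81 at chr3L:2064001-2064400, inside sls, which encodes the giant titin-like protein of muscle, and 24.3 kb from the nearest gene end.

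The boundary of rank 4 (4.78, chr2L:21549201-21549600) flanked the histone gene cluster, a tandem array of the genes for the replication-dependent histones. On the other side of the array stood a boundary of 2.97 at chr2L:21407601-21408000. The 141.2 kb between them held no boundary, and all of the 111 protein-coding genes lying wholly within it were histone genes. A further boundary lay 3.2 kb outside each of them, with strengths of 2.12 on the right and 1.82 on the left. The copies of the array are near identical, and how reads that fit several copies were handled is not given in the sources used here.

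Other strong boundaries inside genes without a gene end nearby fell in mtd (3.96, chr3R:5338401-5338800), in bun, a gene of the TSC22 family (3.43, chr2L:12520401-12520800), and in nmo, the Nemo kinase gene (3.08, chr3L:8024401-8024800). Of the 23 such boundaries, nmo held one more, of 2.56 at 8018801, and its left end carried another strong boundary of 2.58. Strn-Mlck, a muscle kinase gene, held one of 2.63, and CHKov1 one of 2.74. Between genes, strong boundaries lay 21483 bp from CG9380 on 2R (3.93), 2733 bp from Rfx on 3R (3.89) and 1095 bp from CG13323 on 2R (3.65). The boundary of 3.93 and one of 2.54 lying 3.2 kb beyond it were the last listed on 2R. The outer ends of the arms were not among the coordinate limits.

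Among the 20 strongest, 8 had a gene end within 1 kb. The highest of these (3.84, chr2L:11992801-11993200) held ends of escl, a Polycomb-group gene, and Ada1-2, a gene of a histone acetyltransferase complex. The next (3.66, chr3L:14190401-14190800) lay 70 bp from nuf, which is needed for furrow formation in the early embryo, and 753 bp from the channel gene nan. A boundary of 3.34 on 3R held an end of Atpalpha, the sodium pump subunit, and one of 3.17 on 2R an end of NAT1, a gene related to the initiation factor eIF4G. A boundary of 3.26 on 3R lay between bor (155 bp) and tara (472 bp), and those of 3.37 and 3.14 on 2R lay at CG14762 and CG42336. The gene ends at the very strongest boundaries thus belonged to genes of varied function.

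At the eve locus the boundary on the TER94 side was strong and the one on the other side just missed the threshold. The bin at chr2R:9988801-9989200 had a strength of 3.57, rank 11 of 1223, and held an end of TER94, the gene of the ATPase VCP. The opposite boundary lay at chr2R:9972801-9973200 with 1.94, beside CG12134. These 2 boundaries, 15.6 kb apart, enclosed eve (9979319 to 9980795) as the only protein-coding gene lying wholly between them. At the heat shock locus on 3R, Hsp70Aa and Hsp70Ab had a strong boundary on 1 side only. It lay at chr3R:11948801-11949200 (2.73), 480 bp from CG31211 and at an end of the cadherin gene Cad87A, 4963 bp from Hsp70Aa. On the other side, past CG3281 and aurA, the next listed boundary was 395492 bp from Hsp70Ab (1.83). Of the 10 genes of classical insulator loci, TER94 and Ubx were at strong boundaries and Scr at a weaker one. At strong boundaries this was 20% of the list, with an exact interval of 2.52 to 55.6 that includes the 3.00% of all genes. At weaker ones it was 10%, with an interval of 0.253 to 44.5 that includes the 14.7% of all genes. The boundary list starts at a minimum strength, so weaker boundaries at these loci are not shown.

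In the bithorax complex, the Hox genes of the posterior body, 3 strong boundaries were listed near or in the Hox genes. Ubx, which specifies the posterior thorax, stood between a boundary of 2.62 lying 223 bp from one end and a boundary of 3.16 at chr3R:16798401-16798800, between Ubx and abd-A. The interval between them, 142 kb long, held Ubx, CG31275 and Glut3 as whole genes. A boundary of 2.58 lay inside Abd-B at 16969601, 2236 bp from its right end. In the Antennapedia complex the strong class had a boundary of 2.504 inside Antp at 6912401, and the nearest listed boundary on each side of Scr and of ftz was weaker, between 1.43 and 1.67.

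**Figure D2:**
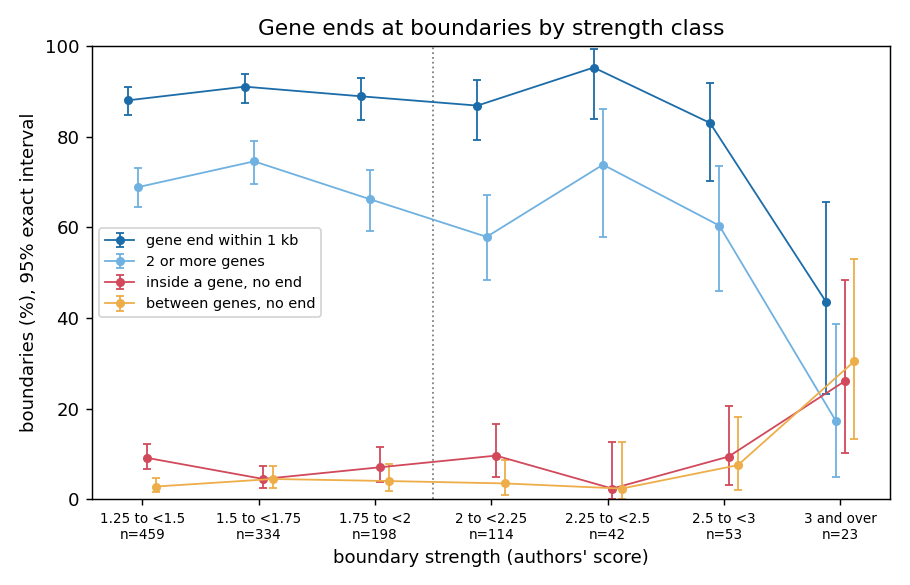
Share of boundaries (vertical axis, percent, with 95% exact intervals) in 7 classes of strength (horizontal axis, with the number of boundaries), the dotted line marking the threshold of 2.0. Shares with a gene end within 1 kb lie between 83.0% and 95.2% in all classes below 3 and at 43.5% in the class of 3 and over.

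A smaller share of strong than of weaker boundaries had gene ends beside them. An end of at least 1 protein-coding gene lay within 1 kb of 193 of the 232 strong boundaries (83.2%, 95% exact interval 77.7 to 87.8) and of 884 of the 991 weaker ones (89.2%, 87.1 to 91.1). This gave an odds ratio of 0.599 (95% interval 0.397 to 0.918; two-sided Fisher's exact test, adjusted p = 0.0333). Ends of 2 or more genes lay near 133 strong boundaries (57.3%) and 696 weaker ones (70.2%), an odds ratio of 0.57 with an interval of 0.42 to 0.773 (exact test, adjusted p = 0.00116). P-values were adjusted over the 5 properties tested, and they concern the boundaries of a map, not the spread between embryos. Gene ends were used because the gene table gives no strand, so an end can be the start or the 3′ end of a gene.

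Both differences became smaller without the strongest boundaries. Of the 23 boundaries with a strength of 3 or more, 10 had a gene end within 1 kb (43.5%, 23.2 to 65.5) and 4 had ends of 2 or more genes (17.4%). With the strong class limited to strengths from 2.0 to below 3, a limit chosen after seeing the data, the shares were 87.6% and 61.7%, and neither difference passed (exact test, adjusted p = 0.754 and 0.0866). Leaving out boundaries within 1 Mb of a coordinate limit, also chosen after seeing the data, the first difference gave an odds ratio of 0.759 and was no longer called (exact test, adjusted p = 0.598). By arm, the share with 2 or more genes was lower in the strong class on each of the 4 arms, at 67.3% against 70.6% on 2L, 51.0% against 69.1% on 2R, 57.1% against 70.7% on 3L and 54.5% against 70.6% on 3R, and none of these passed alone except 3R.

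The other 3 properties did not pass. Of the strong boundaries, 23 lay wholly inside a gene with no gene end within 1 kb (9.91%), against 71 of the weaker ones (7.16%; odds ratio 1.43, interval 0.83 to 2.37, exact test, adjusted p = 0.284). On 3L alone this difference passed, with 10 of 49 strong boundaries inside genes (odds ratio 3.43, exact test, adjusted p = 0.0148), among them those in sls and nmo. The direction was the opposite on 2L (2 of 55 strong, odds ratio 0.391) and on 2R (0.848), and without 3L the odds ratio was 0.979. A tRNA gene end lay near 2 strong and 16 weaker boundaries (odds ratio 0.53, interval 0.0587 to 2.28, exact test, adjusted p = 0.689). A snoRNA gene end lay near 5 strong and 18 weaker ones (odds ratio 1.19, interval 0.342 to 3.37, exact test, adjusted p = 0.787).

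Some strong boundaries came in close pairs. In 48 cases neighbouring boundaries were both strong, with a median gap of 29.0 kb and quartiles of 5.60 and 93.6 kb. The gap was 8 kb or less in 16 cases, and in 13 of these no whole protein-coding gene lay between. The pair in plh is one of them, and others lay in CHKov1 (2.74 and 2.78, 3.6 kb apart), in nmo (5.2 kb apart) and on 2R beyond CG9380 (3.93 and 2.54, 3.2 kb apart). In Muc68Ca on 3L 2 adjoining bins had the same strength, 2.17. In all, 15.1% of strong boundaries had another boundary within 5 kb, against 12.3% of the weaker ones, with intervals of 10.7 to 20.4 and 10.3 to 14.5 that overlap.

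In a few places strong boundaries enclosed a gene. Amph, the amphiphysin gene on 2R, had a boundary of 2.51 lying 4 bp from one end and one of 2.81 lying 333 bp from the other. The trbd gene on 3R had boundaries of 2.20 and 2.003 at its ends, and Tmep on 3L had 2.42 and 2.003. These are the only genes with 2 strong boundaries within 1 kb of their ends. On 2L the glial fate genes gcm and gcm2 lay between boundaries of 2.05 and 2.48, with the latter 95 bp from gcm2, in an interval of 35.6 kb with 3 other genes. On 3R the homeobox gene C15 was the only whole gene between boundaries of 2.15 and 2.22, which lay 32.0 kb apart.

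Domains beside strong boundaries were of the same order as those beside weaker ones. The distance to the next boundary of any strength had a median of 43.6 kb on the sides of strong boundaries (quartiles 15.3 and 105.7 kb) and of 39.2 kb on those of weaker ones (15.2 and 99.6 kb). These distances come from the same contact map as the strength and were not tested. The widest interval beside a strong boundary measured 505.6 kb. A strong neighbour was listed on at least 1 side of 36.6% of strong and 33.9% of weaker boundaries.

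**Figure D3:**
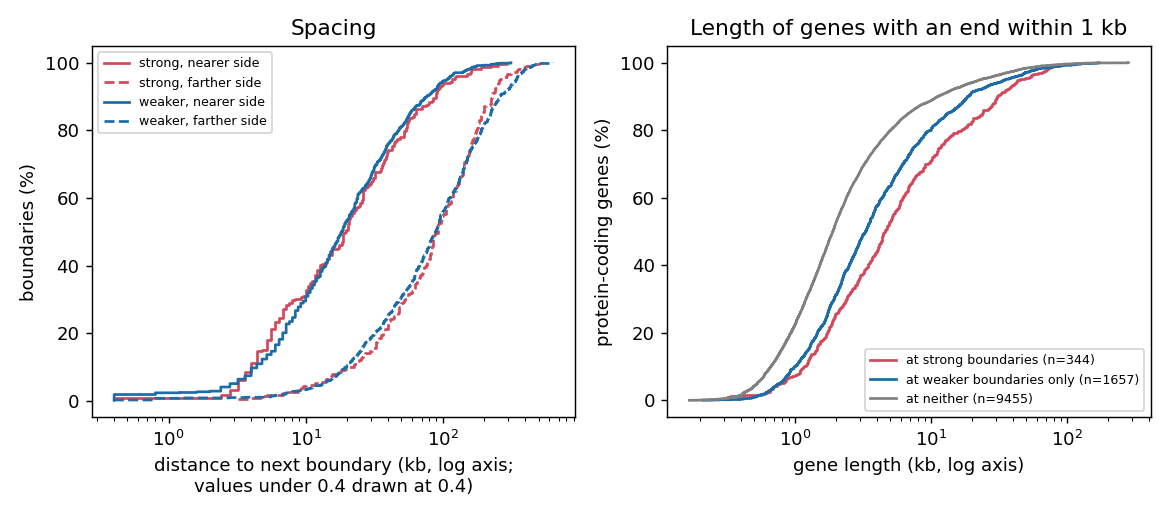
Left, cumulative share of boundaries (percent) by the distance to the next boundary on the nearer and farther side (kb, log axis), where the curves of strong and weaker boundaries run close together. Right, cumulative share of protein-coding genes (percent) by length (kb, log axis), with medians of 4.55 kb for the 344 genes at strong boundaries and 3.30 kb for the 1657 at weaker ones only.

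No strong boundary overlapped a loop anchor, although some lay close to one. Of 222 loops in these coordinates, none had an anchor that overlapped a strong boundary, and none spanned one. This is 0 of 232 strong boundaries, against 15 of 991 weaker ones (1.51%, 95% exact interval 0.85 to 2.48). A limit of 3 counts allows a strong share of up to 1.29%. The exact interval of the strong share reaches 1.58%, which includes 1.51%. Loops and strengths come from the same contact map, and the difference was not tested. Among the weaker boundaries, 14 were spanned by a loop. Within 1 kb of an anchor lay 6 strong boundaries (2.59%) and 23 weaker ones (2.32%), so the shares were alike at that distance. The 6 were one near CG13323 (3.65) and those at arr and cbc (2.38), CG10011 and CG9988 (2.30), CD98hc and Os-C (2.08), Bicra and Cul5 (2.04) and RabGGTa (2.01). Those at CG10011 and at CD98hc adjoined the anchor with a gap of 0 bp. The values of these loops, a score of the authors, ran from 4.59 to 13.99.

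The genes at strong boundaries had a longer median length than those at weaker ones. Within the coordinates, 344 of 11456 protein-coding genes had an end within 1 kb of a strong boundary (3.00%) and 1682 near a weaker one (14.7%), with 25 near both. Gene length had a median of 4.55 kb at strong boundaries (quartiles 1.97 and 11.6 kb), 3.30 kb at weaker boundaries only (1.72 and 7.48 kb) and 2.06 kb over all genes. Of the 344 genes, 59 were longer than 20 kb (17.2%), against 8.69% at weaker boundaries only and 6.58% of all genes. Counted by boundary, 56 of 232 strong ones (24.1%, 18.8 to 30.2) and 150 of 991 weaker ones (15.1%, 13.0 to 17.5) had an end of such a gene within 1 kb. Length was compared after the values were seen and was not tested.

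Long genes of this kind, named after their values were seen, include regulators of growth and tissue form. The insulin receptor gene InR (49.1 kb) and the cell cycle factor E2f1 (40.6 kb) met at a boundary of 3.11, which held the end of InR and lay 704 bp from E2f1. The Notch coactivator gene mam (69.2 kb) had an end 3 bp from a boundary of 2.87. The polarity gene scrib (67.7 kb) had an end inside a boundary of 2.08, and the syndecan gene Sdc (88.8 kb) lay 25 bp from a boundary of 2.53. The bun gene (91.1 kb) had a strong boundary inside it, given above, and another of 3.09 lying 190 bp from its right end. CG42750, at 116 kb, was the longest gene at a strong boundary, with a strength of 2.17. Shorter broadly used genes were present too, such as the tubulin gene alphaTub84B (2.51), the cyclin gene CycB (2.91) and the proton pump gene Vha55 (2.81).

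**Figure D4:**
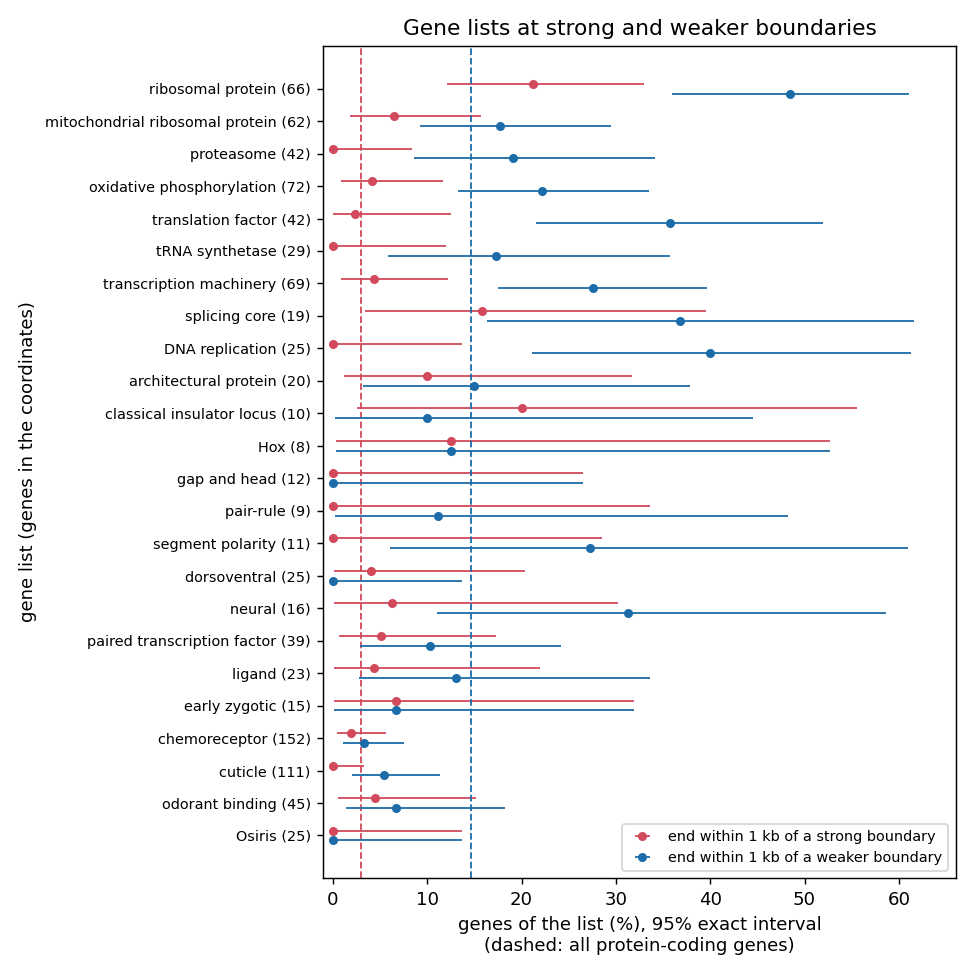
Share of the genes of 24 lists (percent, with 95% exact intervals) that have an end within 1 kb of a strong boundary (red) or of a weaker one (blue), with the number of list genes in the coordinates. Dashed lines mark all protein-coding genes, 3.00% and 14.7%, and ribosomal protein genes lie at 21.2% and 48.5%.

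Ribosomal protein genes had the highest share at strong boundaries of the 24 lists. Of the 66 in these coordinates, 14 had an end within 1 kb of a strong boundary (21.2%, 95% exact interval 12.1 to 33.0) against 3.00% of all protein-coding genes, and 32 had one near a weaker boundary (48.5%) against 14.7%. Of the 46 at a boundary of either class, 30.4% were at a strong one, compared with 17.2% of all genes at boundaries. The highest strengths were those at RpS15 (2.91), RpS21 (2.72), RpL3 (2.56), RpL30 (2.54) and RpS28a (2.48). With a threshold of 2.5, 4 of the 66 genes remained (6.06%), against 0.821% of all genes. Such shares are descriptions of a list, and the members of the lists were not tested.

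In 4 other housekeeping lists a few genes were at strong boundaries, and whether the lists differed from each other was not tested. Of 19 genes of the splicing core, snRNP-U1-C (2.94), snRNP-U1-70K (2.66) and Sf3a1 (2.11) were at strong boundaries and 7 at weaker ones, with snRNP-U1-70K near both. This was 15.8% of the list, with an interval of 3.38 to 39.6 that lies above the 3.00% of all genes. Of 62 mitochondrial ribosomal protein genes, 4 were at strong boundaries, mRpS31 (2.82), mRpL13 (2.33), mRpS6 (2.248) and mRpL47 (2.03), and 11 at weaker ones. Of 69 genes of the transcription machinery, TfIIS (2.40), MED4 (2.16) and TfIIA-S (2.15) were at strong boundaries and 19 at weaker ones, with TfIIS near both. Of 72 genes of oxidative phosphorylation, ND-B17 (2.08), ATPsynF (2.04) and RFeSP (2.04) were at strong boundaries and 16 at weaker ones. The shares of these last 3 lists at strong boundaries were 6.45%, 4.35% and 4.17%, with intervals that include 3.00%, and at weaker ones 17.7%, 27.5% and 22.2% against 14.7%.

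Several housekeeping lists had at most 1 gene at a strong boundary and more at weaker ones. Of 42 translation factor genes, eIF3e (2.06) was at a strong boundary and 15 were at weaker ones (35.7%). The strong share was 2.38%, with an exact interval of 0.0603 to 12.6 that includes the 3.00% of all genes. Of 25 genes of DNA replication, 10 were at weaker boundaries (40.0%) and none at a strong one. Likewise 8 of 42 proteasome genes (19.0%) and 5 of 29 tRNA synthetase genes (17.2%) were at weaker boundaries only. At these list sizes a count of 0 allows shares of up to 12%, 7.14% and 10.3% at strong boundaries, which include the 3.00% of all genes. At weaker boundaries the share of all genes was 14.7%. This lies within the exact intervals for proteasome genes (8.60 to 34.1) and tRNA synthetase genes (5.85 to 35.8). Over the 426 housekeeping genes, 28 were at strong boundaries (6.57%, 4.41 to 9.36), and 14 of them were the ribosomal protein genes.

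Developmental genes were at strong boundaries in a share near that of all genes. Of 142 genes in the developmental lists, 7 had an end within 1 kb of a strong boundary (4.93%, 2.00 to 9.89), against the 3.00% of all genes, which lies within the interval, and 16 had one near a weaker boundary (11.3%, against 14.7%). Of the 23 at a boundary of either class, 30.4% were at a strong one, against 17.2% of all genes at boundaries. For the 19 late tissue-specific genes at boundaries the share was 26.3%. These counts are small and the shares were not tested. The 7 were dnk, a nucleoside kinase gene of the early zygotic list (2.94), Ubx (2.62), gcm2 (2.48), spi, the ligand of the EGF receptor (2.41), the LIM-homeodomain gene tup (2.33), sim, the master gene of the ventral midline (2.24), and eya, of retinal determination (2.10). The end of tup lay inside the same bin as an end of mRpL13, and dnk shared its boundary with snRNP-U1-C and gukh. None of the 12 gap and head genes was at a listed boundary of either class, which allows a share of up to 25.0%. Of the 9 pair-rule genes, only odd was near a listed boundary, a weaker one (1.29). Of the 11 segment polarity genes, ptc (1.53), mid (1.31) and nkd (1.29) were, all at weaker boundaries. These shares were 11.1% (0.281 to 48.2) and 27.3% (6.02 to 61.0), and both intervals include the 14.7% of all genes.

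Of 333 late tissue-specific genes, 5 were near strong boundaries (1.50%, 0.489 to 3.47) and 14 near weaker ones (4.20%, 2.32 to 6.95). Over all genes the shares were 3.00%, which lies within the first interval, and 14.7%, which lies above the second. The 5 were the chemoreceptor genes Ir21a (2.49), Ir31a (2.32) and Ir68b (2.24) and the odorant-binding genes Obp28a (2.13) and Obp47b (2.05). The bin at Ir31a also held an end of the ribosomal protein gene RpS27A, and that at Ir21a lay inside the polarity gene l(2)gl, 176 bp from its end. No gene of the cuticle list (0 of 111) or the Osiris list (0 of 25) was at a strong boundary. A limit of 3 counts allows shares of up to 2.70% and 12%. The exact intervals reach 3.27% and 13.7%, and both include the 3.00% of all genes. Members of these lists lie in clusters, so they are not independent.

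Genes for architectural proteins were themselves at boundaries in a few cases. Of 20 in the coordinates, mod(mdg4), which encodes insulator proteins, had an end inside a boundary of 2.15, and SMC1, a cohesin subunit gene, lay 287 bp from one of 2.07. SMC1 was the only whole gene between that boundary and the next, 47.6 kb away (2.40). The insulator genes su(Hw) (1.63) and pita (1.53) and the GAGA factor gene Trl (1.44) were near weaker boundaries. At strong boundaries this was 10% of the list, with an exact interval of 1.23 to 31.7 that includes the 3.00% of all genes, and at weaker ones 15% against 14.7%.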

How the data were processed

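For the yw samples the submitters' processing notes name BWA 0.7.17 and the build dm6. Which boundary caller was run, and whether the 2 samples were pooled, is not given here. The boundary strength and the loop value are scores that the authors deposited without saying how they are scaled. Of 2034 boundary rows, 14 exact repeats were removed. Loop anchors came from the loop table, and the deposited anchor list holds the same intervals.

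Genes came from a RefSeq table of Release 6, the assembly of dm6, with no strand and no sequence. Planned tests of transcription starts, divergent starts and promoter motifs were therefore not run, and no sequence is shown. Strong and weaker boundaries were compared by two-sided Fisher's exact tests with Benjamini-Hochberg adjustment over 5 properties (SciPy 1.17.1). The test was checked on simulated properties drawn independently for each boundary, so that check does not cover boundaries that share genes. A property was an end within 1 kb of the 400 bp bin. Intervals of shares are Clopper-Pearson at 95% and cover counting error only. A count of 0 was given the limit of 3 counts, which is lower than the upper end of the exact interval. Boundaries near each other share genes and are not independent.

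The members and the 24 gene lists were chosen with earlier results of these data known. Of listed symbols, 3 had no match. Genes were named at the 20 strongest boundaries, at the 5 on each side of the threshold, with 2 strong boundaries, holding the 10 strongest boundaries without a gene end, and up to 5 of each list by strength, or all at boundaries in lists of up to 16. Genes at the heat shock and Hox loci, in close pairs, near loop anchors and among long or broadly used genes were named after their values were seen.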

Additional observations from a re-analysis of the deposited data

How the results depend on the processing

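No paired analysis was possible because the deposited lists hold no value per sample. The lower share of strong boundaries with ends of 2 or more genes kept its direction under all 19 alternatives, with odds ratios of 0.402 to 0.857. It did not pass on 2L (0.857), 2R (0.467) or 3L (0.553) alone, with a gene end required inside the bin (0.793), or with strengths of 3 and over left out (0.684).

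The difference in gene ends of any number was less firm, and 6 of 19 alternatives kept the call. The odds ratio was 0.726 at a lower threshold of strength, 0.674 against boundaries below 1.5, 0.679 without boundaries that have a stronger one within 5 kb, 0.627 on 2R, 0.678 on 3R, 0.586 without 2R, 0.754 without 3L, 0.567 without 3R, 0.617 at 2 kb, 0.852 without strengths of 3 and over, 0.759 away from the coordinate limits and 0.539 with at least 5 genes within 25 kb. On 2L alone it reversed (1.09). The cause was not tested.

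Boundaries inside genes passed on 3L alone (3.43) and without 2L (1.86), and the direction turned on 2L (0.391), on 2R (0.848), without 3L (0.979) and where only an end inside the bin counted (0.828). Near snoRNA genes it turned on 3L (0), without 2L (0.831) and with the end inside the bin (0). Ribosomal protein genes at strong boundaries fell to 6.06% at a threshold of 2.5. All genes came to 0.821% there and to 3.64% within 2 kb. With anchors within 1 kb counted, 2.59% of strong boundaries were at an anchor. Depth is unknown for every value.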

Other observations

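An end of a lncRNA gene lay within 1 kb of 11 of 232 strong boundaries (4.74%, 95% exact interval 2.39 to 8.33) and of 47 of 991 weaker ones (4.74%, 3.51 to 6.26). An end of a miRNA gene lay near 3 strong and 6 weaker boundaries. Within 25 kb of a strong boundary lay a median of 9 protein-coding genes (quartiles 5 and 12), and of a weaker one 10 (7 and 13). No gene end lay within 5 kb of 25 strong boundaries (10.8%, 7.10 to 15.5) and of 54 weaker ones (5.45%, 4.12 to 7.05). These values were not tested.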
